A study of Mus musculus with 32 samples.

Results

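The comparison described here is that of Ifnar1-/- with WT bone marrow-derived macrophages (BMDMs) after IFNβ+zVAD, a stimulus that combines type I interferon with caspase inhibition. Its members were taken from the sample labels, which give genotype Ifnar1_KO or WT and the treatment of IFN with zVAD, and they are 4 of the 32 arrays of the series, 2 of each genotype. The difference between the same genotypes left untreated, on 2 arrays each, is given beside it for many of the genes and lists. Where only the values with IFNβ+zVAD are given, the genotypes can have differed untreated as well. The difference after zVAD alone is given where it bears on a result. Arrays of both genotypes with IFNβ alone, or with IFNβ+zVAD and the RIPK1 inhibitor Nec-1, are read for some genes. The groups given LPS, LPS+zVAD or LPS+zVAD+Nec-1 entered the fit of all 32 arrays, from which the spread was estimated. All these treatments lasted 6 h by the labels. BMDMs were grown from the bone marrow of WT C57BL/6 mice and of mice that lack Ifnar1, and were differentiated with M-CSF. IFNβ+zVAD was given for 6 h, with zVAD at 50 µM and IFNβ at 1000 U/mL by the labels, and other doses of IFNβ are written elsewhere in the study's description. RNA of each culture was hybridized with 1 dye to Agilent mouse arrays, and 16022 genes were tested on the log2 intensity of their brightest probe. The labels do not say whether the replicates came from separate mice or cultures, so that p-values measure only the spread between these samples.

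Type I interferons bind a receptor of the chains IFNAR1 and IFNAR2, which activates the kinases JAK1 and TYK2 and leads to the assembly of the factor ISGF3, of which STAT2 and IRF9 are parts. ISGF3 binds the interferon-stimulated response element (ISRE) of antiviral genes, and macrophages keep a low tonic signal of this kind without any added interferon. When caspases are blocked by zVAD, the kinases RIPK1 and RIPK3 can assemble the necrosome, RIPK3 phosphorylates MLKL, and MLKL breaks the plasma membrane in the lytic death called necroptosis. Nec-1 inhibits RIPK1.

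The arrays lay on 4 slides, of which slides 1 and 2 held the WT samples and slides 3 and 4 the Ifnar1-/- samples. Genotype and slide therefore cannot be told apart in a comparison of the genotypes within a treatment, whereas the response of a genotype was measured within its slides. With IFNβ+zVAD 62.6% and 57.4% of all probes were well above background on the WT arrays and 51.3% and 49.2% on the Ifnar1-/- arrays, and over all arrays the shares were 54.8% to 77.7% for WT and 44.5% to 61.6% for Ifnar1-/-. Saturated spots were counted at 0 on each array. Replicates correlated at 0.9732 to 0.991 over genes, except the Ifnar1-/- LPS+zVAD+Nec-1 pair at 0.9471. The arrays labelled Ifnar1-/- zVAD also stood apart from each other in inflammatory genes, as given below, and results that rest on these pairs are shown without them. Leaving out the zVAD pair was decided after the values were seen.

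Ifnar1 was measured with 3 probes, all on chromosome 16 in mm9, the build of the array's annotation. At chr16:91506635-91506693 the level with IFNβ+zVAD was 10.72 and 10.83 in WT and 8.73 and 8.39 in Ifnar1-/- (log2 difference -2.21, adjusted p = 9.45e-09 by limma). At chr16:91503764-91505350 it was 8.50 and 8.54 in WT and 7.00 and 6.89 in Ifnar1-/- (log2 difference -1.58, adjusted p = 2.83e-05). The brightest probe, at chr16:91510673-91510732, read 12.82 and 12.87 in WT and 12.22 and 12.05 in Ifnar1-/-, and this difference of -0.71 was not called (adjusted p = 0.413). In untreated cells the brightest probe read 14.22 and 14.19 in WT and 11.89 and 11.87 in Ifnar1-/-. Both of the other probes were thus lower in Ifnar1-/- with IFNβ+zVAD. All 3 probes stayed well above background on nearly all Ifnar1-/- arrays (16, 15 and 16 of 16 arrays). The sources used here do not place the altered part of the gene relative to the probes, and a probe outside that part does not check the labels.

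With IFNβ+zVAD, 6950 of the 16022 genes differed between the genotypes at an adjusted p below 0.05. Of these, 2544 genes were lower in Ifnar1-/- (15.9% of all genes tested) and 4406 were higher (27.5%). In untreated cells 536 genes were lower (3.35%) and 863 higher (5.39%) in Ifnar1-/-. The genes that differed by 16-fold or more were mostly lower, with 287 lower and 62 higher, whereas at 2-fold or more 1897 were lower and 2860 higher. The preponderance of higher genes depended on the scaling, since with each array scaled to its 75th percentile 3164 were lower and 3029 higher (48.9% of the called genes higher, against 63.4%), and the median over all genes moved from 0.14 to -0.15. More genes were thus called with IFNβ+zVAD than in untreated cells. Of all genes, 387 were lower in both conditions, which is 15.2% of the genes lower with IFNβ+zVAD and 72.2% of those lower untreated. A further 656 genes were higher in both (14.9% and 76% of the respective lists).

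**Figure D1:**
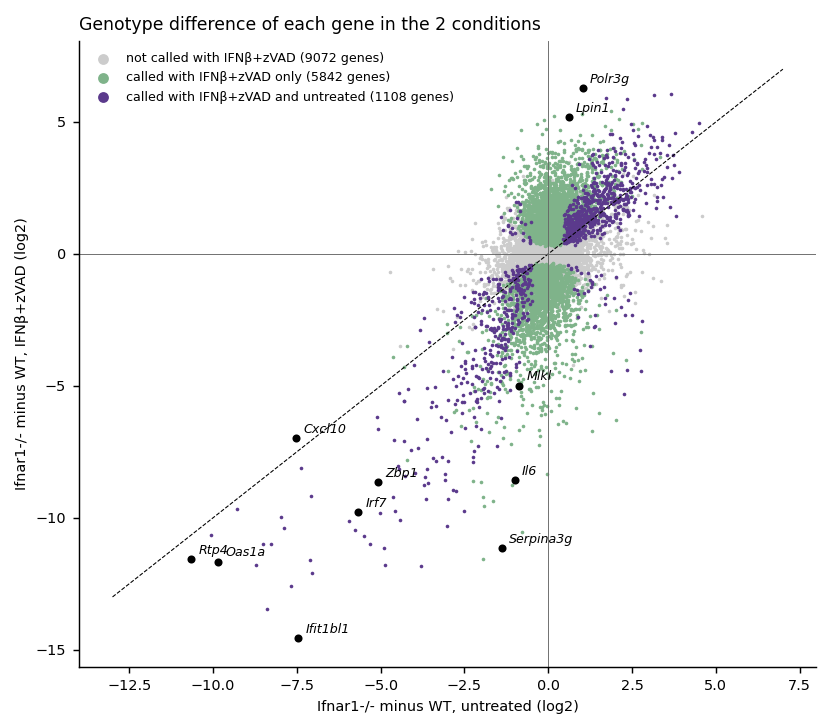
Each point is a gene, with the log2 difference of Ifnar1-/- minus WT in untreated cells on the x axis and with IFNβ+zVAD on the y axis, and the dashed line marks equal differences. Of the 16022 genes, 9072 were not called with IFNβ+zVAD, 5842 were called with IFNβ+zVAD only and 1108 in both conditions. Oas1a and Rtp4 lie near the dashed line, whereas Serpina3g, Mlkl and Il6 lie well below it.

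Whether a gene's genotype difference changed with the treatment was tested as an interaction, which sets the response of Ifnar1-/- cells against that of WT cells and in which a constant difference between slides cancels. The interaction was negative in 1345 genes (8.39%) and positive in 1741 (10.9%), 3086 genes in all. With slide as a fixed block the count was 5634, and with slide as a random block 5426. The share of positive interactions was 56.4%, and 43.3% with the arrays scaled to their 75th percentile. Measured against zVAD alone in place of untreated cells, 1174 genes had a negative interaction (7.33%) and 1306 a positive one (8.15%), with 52.7% positive, or 39.8% under the other scaling. With zVAD alone 504 genes were lower (3.15%) and 808 higher (5.04%) in Ifnar1-/-, that is 61.6% higher among the called genes, or 48.7% under the other scaling. The count for zVAD alone rests on a divergent pair of Ifnar1-/- arrays.

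Stat2 and Irf9 were lower in Ifnar1-/-. Stat2, whose product carries the transactivation domain of the complex, read 16.07 and 16.28 in WT and 10.89 and 11.61 in Ifnar1-/- with IFNβ+zVAD, and 13.62 and 13.54 against 11.04 and 11.56 in untreated cells. Its log2 difference was -4.92 (SE 0.37, adjusted p = 7.29e-09) with the stimulus and -2.28 without. Irf9, the DNA-binding subunit, read 14.27 and 14.91 against 10.59 and 10.77 (log2 difference -3.91, SE 0.25, adjusted p = 8.49e-10). The Ifnar1-/- levels of both genes with IFNβ+zVAD were close to their untreated levels, of 10.89 and 11.09 for Irf9. The WT response was 2.59 for Stat2 and 0.74 for Irf9 on the log2 scale. Most of the Irf9 difference was thus present in untreated cells, where it was -2.86. The interaction was called for Stat2 (-2.64, adjusted p = 0.00172) and narrowly for Irf9 (-1.04, adjusted p = 0.0469), which was lost under most alternatives, with adjusted p-values of 0.0512 without the Ifnar1-/- zVAD pair, 0.0518 with normexp, 0.0536 with the stricter filter, 0.0772 with the authors' values, 0.0786 without a filter, 0.0879 with only the compared arrays and up to 0.208 when 1 array was left out (WT replicate 2 with IFNβ+zVAD). Of the 7 genes of the receptor and ISGF3 list, 3 were lower and 0 higher (median log2 difference -0.71, against 0.14 over all genes tested).

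The interferon regulatory factor Irf7, an ISGF3 target that amplifies interferon production, read 16.46 and 16.64 in WT and 6.52 and 7.01 in Ifnar1-/- (log2 difference -9.78, SE 0.42, adjusted p = 2.69e-12). In untreated cells it read 12.14 and 12.57 against 6.55 and 6.83 (log2 difference -5.67), and the interaction was -4.12 (adjusted p = 0.000105). Over the 12 IRF genes 5 were lower and 3 higher (41.7% and 25%, against 15.9% and 27.5% over all genes tested), so the share of higher genes was near that over all genes. Other kinases and STATs that receptors share followed in part, with Jak2 at a log2 difference of -2.76 (adjusted p = 6.34e-06) and Stat3 at -2.61 (adjusted p = 3.24e-07), while Ifnar2, the partner chain of the receptor, differed by -0.13 and was not called. Among negative regulators, Usp18, which removes ISG15 from proteins and blocks IFNAR2, read 16.99 and 16.95 in WT and 5.41 and 5.31 in Ifnar1-/- (untreated log2 difference -7.12). Socs1, an inhibitor of JAK kinases, read 15.13 and 13.95 against 7.9 and 7.81 (log2 difference -6.68, adjusted p = 2.39e-06). Of 13 such regulators 5 were lower and 2 higher (38.5% and 15.4%, against the same shares over all genes).

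The antiviral effectors were lower almost as a whole. Of the 46 tested, 42 were lower and 0 higher in Ifnar1-/- with IFNβ+zVAD (median log2 difference -5.68), and 37 were lower already in untreated cells (median -2.99, against 0.01 over all genes). For 32 of them the interaction was negative and for 0 positive. Where both arrays of a group were not well above background, a level is only an upper limit, and the difference is given as a bound, taken as the mean of the bright group over the mean, per array, of the higher of the gene's own signal and the lowest signal that any probe well above background had. With such genes at their bound the median was -5.38 with IFNβ+zVAD and -2.67 untreated.

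Ifit1bl1, of the family of proteins that bind foreign RNA ends, showed how far the levels lay apart (probe at chr19:34667950-34668009 in mm9). It read 17.22 and 16.44 in WT with IFNβ+zVAD and 9.66 and 9.76 in untreated WT. In Ifnar1-/- it read 2.28 and 2.26 with the stimulus and 2.22 and 2.27 without, which is background. Ifit1bl1 was at least 3240-fold lower in Ifnar1-/- with IFNβ+zVAD (adjusted p = 1.74e-12) and at least 41-fold lower untreated. Mx1, a GTPase that blocks influenza viruses (chr16:97668644-97668703), read 17.31 and 17.22 against 3.59 and 4.03, at least 4390-fold lower (adjusted p = 1.84e-09) and in untreated cells at least 148-fold lower. Usp18 was at least 2980-fold lower (adjusted p = 1.6e-13), Ifit3b at least 2240-fold (adjusted p = 4.42e-11) and Ifi44 at least 1030-fold (adjusted p = 4.85e-10).

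Some effectors were already far apart in untreated cells. Oas1a, which makes the second messenger that activates RNase L, read 17.71 and 17.98 in stimulated WT and 15.91 and 16.15 in untreated WT. It read 4.81 and 7.56 in stimulated and 5.36 and 7.03 in untreated Ifnar1-/-, so that the log2 difference was -11.67 with the stimulus and -9.84 without, and the interaction of -1.83 was not called (SE 1.43, adjusted p = 0.419). Rtp4, an inhibitor of viral RNA replication, differed by -11.57 and -10.66 (interaction -0.92, SE 1.32, adjusted p = 0.703). The WT response was 1.82 for Oas1a and 1.5 for Rtp4 on the log2 scale, well below the genotype difference in untreated cells. Isg15, the ubiquitin-like modifier itself, read 18.44 and 18.51 in WT and 11.87 and 10.96 in Ifnar1-/- (log2 difference -7.06, adjusted p = 1.48e-06). Its level in untreated Ifnar1-/- cells was 10.58 and 10.5, and its WT response was 3.33. All 5 genes of ISG15 conjugation were lower, among them the ligase Herc6 (-6.55) and the activating enzyme Uba7 (-3.58).

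**Figure D2:**
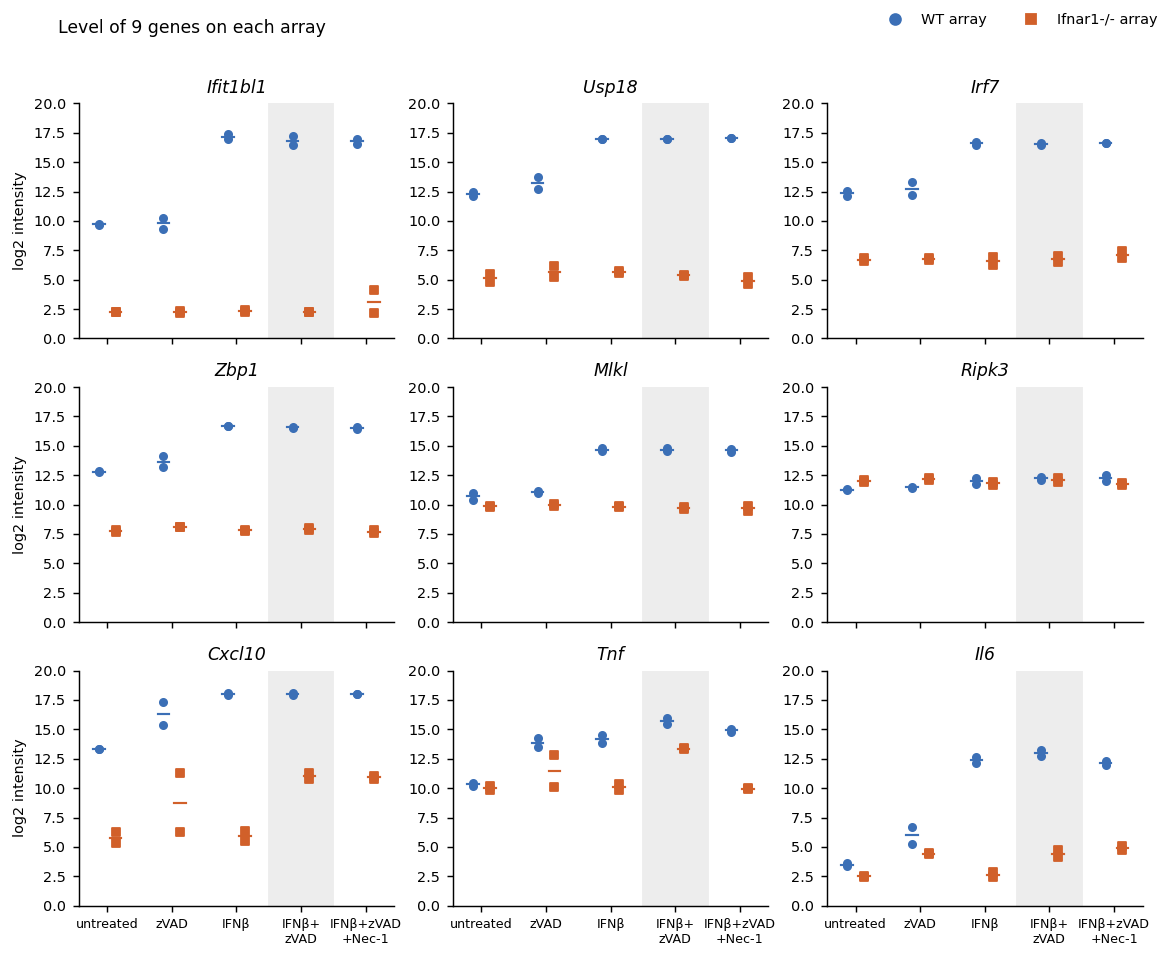
The log2 intensity of 9 genes on each WT array (circles) and each Ifnar1-/- array (squares) is shown in 5 treatments, with a bar at the mean of each pair and the IFNβ+zVAD column shaded. Mlkl in Ifnar1-/- lies between 9.49 and 10.03 on all arrays shown, Ripk3 overlaps between the genotypes with IFNβ+zVAD, and Tnf in Ifnar1-/- reaches 13.3 and 13.39 with IFNβ+zVAD against 9.84 and 10.37 with IFNβ alone.

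Interferon-inducible GTPases, which attack the vacuoles of intracellular microbes, were lower in all 18 genes tested (median log2 difference -6.21), and 8 were lower untreated (median -2.11). Tgtp2 read 17.71 and 17.83 in WT and 7.59 and 6.55 in Ifnar1-/- (log2 difference -10.7, adjusted p = 1.16e-11), and its WT response was 5.33 on the log2 scale. Gbp4 read 13.97 and 14.3 in stimulated WT, 5.25 and 6.77 in untreated WT and between 2.17 and 2.34 on the Ifnar1-/- arrays of both conditions, at least 502-fold lower with the stimulus (adjusted p = 3.92e-10). Gbp2 and Gbp5 differed by -5.83 and -5.98, and both were clearly detected in stimulated Ifnar1-/- cells (12.6 and 12.22 for Gbp2, 10.8 and 9.94 for Gbp5). The other retained probe of Gbp5 differed by -2.11. Of the GTPases, 15 had a negative interaction.

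The sensors of foreign nucleic acid were lower in 15 of 21 genes and higher in 0 (median -2.33). Ddx58, which encodes the RNA sensor RIG-I, differed by -6.18 (SE 0.21, adjusted p = 1.6e-13) and Dhx58, its relative LGP2, by -6.17 (SE 0.21, adjusted p = 1.6e-13), in untreated cells by -3.21 and -2.21. Ddx60, a helicase that assists RIG-I, read 12.3 and 12.33 in WT and 2.26 and 2.19 in Ifnar1-/-, at least 142-fold lower. In the MHC class I pathway 17 of 22 genes were lower and 3 higher (median -1.57). Nlrc5, its transcriptional activator, differed by -6.03, the peptide transporter Tap1 by -4.51 and the immunoproteasome subunit Psmb9 by -3.32. The other retained probe of Nlrc5 differed by -2.36 and that of Psmb9 by -4.4. MHC class II and costimulatory genes went both ways, with 7 of 16 lower and 3 higher, and the T cell costimulator Cd86 was lower (-5.29, adjusted p = 1.46e-09), as was the inhibitory ligand Cd274 (-3.79, adjusted p = 3.18e-05).

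The promoters of these genes were searched for the ISRE core, which reads GAAA, any 2 bases and GAAA again, on both strands of the window from 250 bases before to 50 bases after each RefSeq transcription start (GRCm38.p6). The core was present for 4% of the tested genes that had a promoter entry (482 of 12048) and in 3.44% of all RefSeq mouse promoters. It was present for 8.11% of the genes lower with IFNβ+zVAD (155 of 1912), for 26.8% of those lower by 16-fold or more (53 of 198) and for 2.65% of the higher genes. Of the genes lower in both conditions 18.1% held it (51 of 282), against 6.32% of those lower with IFNβ+zVAD only. These shares describe the lists and do not show which factor binds. The windows below are shown because they carry the core in genes whose levels are given above. Each is written 5′ to 3′ on the strand of the gene with the core in capitals, and a core that begins with TTTC is the same match read on the other strand.
Ifit1bl1, chr19:34599431-34599460, minus strand: actctgtaggTTTCATTTTCtgtaagttgg
Ifit3b, chr19:34607793-34607822, plus strand: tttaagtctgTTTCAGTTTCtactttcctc
Ifit3b, chr19:34607759-34607788, plus strand: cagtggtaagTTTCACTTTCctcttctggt
Isg15, chr4:156200871-156200900, minus strand: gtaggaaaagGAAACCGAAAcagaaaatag
Tgtp2, chr11:49064263-49064292, minus strand: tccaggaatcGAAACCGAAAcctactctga
Ddx60, chr8:61928024-61928053, plus strand: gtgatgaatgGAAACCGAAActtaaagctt
Socs1, chr16:10785594-10785623, minus strand: gccggaaagaGAAACCGAAAgcgggggtgg
Stat2, chr10:128270266-128270295, plus strand: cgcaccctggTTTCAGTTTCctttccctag
The core of Isg15, Tgtp2, Ddx60 and Socs1 shown here has the same letters in all 4 genes, GAAACCGAAA. The windows of Mlkl, Irf7, Irf9, Casp8, Ifi44 and Ripk3 held no match (0 in each).

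Among the genes of the death machinery, the executioner Mlkl and the sensor Zbp1 lay far apart between the genotypes, whereas the kinase genes Ripk1 and Ripk3 differed little. Mlkl (chr8:113835700-113835759 in mm9) read 14.82 and 14.54 in WT and 9.79 and 9.58 in Ifnar1-/- with IFNβ+zVAD. In untreated cells it read 11.01 and 10.41 in WT and 9.77 and 9.91 in Ifnar1-/-, close to the stimulated Ifnar1-/- arrays. Mlkl was thus 31.9-fold lower with IFNβ+zVAD (log2 difference -4.99, SE 0.27, adjusted p = 5.63e-11), while the untreated difference of -0.87 was just short of a call (adjusted p = 0.0509). It was called without the Ifnar1-/- LPS+zVAD+Nec-1 pair (adjusted p = 0.018) and without both divergent pairs (0.0228). Within the slides the level of Mlkl with IFNβ+zVAD minus untreated was 3.81 and 4.13 in WT and 0.02 and -0.33 in Ifnar1-/- (interaction -4.13, adjusted p = 1.12e-06). IFNβ alone gave much the same picture, with 14.8 and 14.52 in WT and 9.77 and 9.88 in Ifnar1-/-.

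Zbp1, which senses Z-form nucleic acid and recruits RIPK3 (chr2:173039307-173039366), read 16.55 and 16.63 in WT and 8.03 and 7.83 in Ifnar1-/-, and 12.87 and 12.75 against 7.8 and 7.69 in untreated cells. It was 404-fold lower with the stimulus (log2 difference -8.66, adjusted p = 6.1e-10), and the interaction was -3.59 (adjusted p = 0.00306). Casp8, the protease that zVAD must block for necroptosis to proceed, read 14.87 and 14.21 in WT and 12.72 and 12.89 in Ifnar1-/- (log2 difference -1.73, adjusted p = 7.41e-06, untreated -0.26). Ripk1 read 12.61 and 12.47 against 11.93 and 11.99 (log2 difference -0.58, adjusted p = 0.00577), and this call was lost without WT replicate 1 (adjusted p = 0.0508) and in a fit of only the compared arrays (adjusted p = 0.122). Ripk3 read 12.36 and 12.11 in WT and 11.95 and 12.27 in Ifnar1-/-, which overlap (log2 difference -0.13, SE 0.28, adjusted p = 0.75).

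Of the 37 genes of the necroptosis list 15 were lower and 4 higher in Ifnar1-/- with IFNβ+zVAD (median -0.39), and 4 were lower and 0 higher in untreated cells. The lower ones included Eif2ak2, the double-stranded RNA-activated kinase PKR (-4.8, adjusted p = 6.37e-12), and Rnf31, the catalytic subunit of the linear ubiquitin ligase (-2.41, adjusted p = 1.33e-08). Tnfsf10, which encodes the death ligand TRAIL, read 14.72 and 14.05 against 2.36 and 2.8, at least 595-fold lower. Apoptosis genes of the BCL2 family and related groups were lower in 9 of 24 and higher in 7, a share of higher genes near the 27.5% over all genes. In a fit of only the compared arrays 5 were lower and 2 higher, and with the 75th percentile scaling 4 were higher. The BH3-only gene Bmf was higher (2.98, adjusted p = 0.000697), with a WT response of -4.68 and an interaction of 4.44. Of the inflammasome genes 12 of 20 were lower and 1 higher (7 lower in the authors' normalized values), among them Casp4, the mouse caspase-11 that binds LPS (-3.23, adjusted p = 2.88e-05), and Nlrp3 (-2.79, adjusted p = 0.00196).

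Interferon-induced chemokines were lower in 8 of 10 genes and higher in 0 (median -5.37), while in untreated cells 1 was lower and 1 higher. Ccl12, a ligand of CCR2, read 15.79 and 14.54 in WT and 2.32 and 4.85 in Ifnar1-/-, at least 1020-fold lower (adjusted p = 2.17e-08), against 5.49 and 5.63 in untreated WT. Ccl7, another CCR2 ligand, read 16.32 and 14.32 against 8.83 and 9.23 (log2 difference -6.29), whereas untreated it was 7.04 and 7.21 in WT and 8.67 and 9.61 in Ifnar1-/-, the opposite order, which was not called (2.01, adjusted p = 0.148). The interaction of Ccl7 was -8.3 (adjusted p = 6.22e-05). Cxcl9, a CXCR3 ligand, read 15.57 and 15.53 against 6.79 and 5.57 (log2 difference -9.37, adjusted p = 4.06e-09).

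Cxcl10, another CXCR3 ligand on the list, followed a different course from Cxcl9. It read 18.11 and 17.92 in WT and 11.31 and 10.74 in Ifnar1-/- with IFNβ+zVAD, and 13.31 and 13.31 against 5.34 and 6.24 in untreated cells. The log2 difference was -6.99 (SE 1.03, adjusted p = 2.4e-05) and untreated -7.52, so that the interaction was 0.53 (SE 1.45, adjusted p = 0.856). The level in Ifnar1-/- cells was thus higher with the stimulus on both arrays, from a lower start. With IFNβ alone it was 5.49 and 6.39.

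The cytokines were lower in 13 of 20 genes tested and higher in 0 (median -2.48). Il12a, Il12b, Il23a, Il33, Lif, Csf2, Csf3, Ifna4 and Ifng were on the array but were not kept for testing. The count therefore covers only part of the 29 cytokines listed. Il6 read 12.76 and 13.26 in WT and 4.14 and 4.72 in Ifnar1-/-, at least 230-fold lower (adjusted p = 0.000263), and was near background in untreated cells of both genotypes, at 2.47 to 3.59. Il10, which encodes an anti-inflammatory cytokine, read 12.18 and 10.79 against 6.99 and 6.91 (log2 difference -4.54, adjusted p = 7.11e-05), with an interaction of -4.15 (adjusted p = 0.00931). Ifnb1, the gene of IFNβ itself, read 10.12 and 11.53 against 6.74 and 4.56 (log2 difference -5.17, adjusted p = 0.00044).

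Tnf, the gene of the cytokine TNFα, differed less (chr17:35336795-35336854 in mm9). It read 15.46 and 15.96 in WT and 13.3 and 13.39 in Ifnar1-/- with IFNβ+zVAD, and 10.47 and 10.22 against 9.88 and 10.14 in untreated cells. The groups did not overlap, and the log2 difference of -2.37 (SE 1.11) was not called in the fit of all arrays (adjusted p = 0.0939). The spread in that fit rests in part on the divergent Ifnar1-/- pairs, and the adjusted p was 0.00172 without the LPS+zVAD+Nec-1 pair and 9.04e-06 without both that pair and the zVAD pair. The zVAD pair was left out because its arrays differed in inflammatory genes such as Tnf, so the last value is a description. With zVAD alone Tnf was 13.5 and 14.24 in WT and 12.84 and 10.13 in Ifnar1-/-, and with IFNβ alone 13.88 and 14.48 against 9.84 and 10.37. In Ifnar1-/- cells Tnf was therefore high on both arrays with IFNβ+zVAD and on 1 of 2 with zVAD, and at its untreated level with IFNβ.

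Il1b, Cxcl2 and Socs3, other targets of NF-kB or STAT3, resembled Tnf, with log2 differences of -2.15, -2.67 and -2.76 that were not called with all arrays (adjusted p = 0.36, 0.145 and 0.101). Without both pairs the adjusted p was 0.00567, 0.00365 and 1.25e-05. That fit was chosen after the arrays were seen to differ in such genes, so these values are a description. Cxcl1 overlapped between the genotypes, at 10.38 and 12.51 in WT and 11.58 and 10.47 in Ifnar1-/- (log2 difference -0.42, SE 1.46, adjusted p = 0.842). Its relative Cxcl3 went the other way (2.96), which was not called without both pairs (adjusted p = 0.106 by limma). Of the 9 NF-kB chemokines tested 3 were lower and 1 higher (33.3% and 11.1%, median -0.77). Over all genes tested 15.9% were lower and 27.5% higher. With the 75th percentile scaling 0 of the 9 were higher. Of the 32 NF-kB subunits, inhibitors and TNF targets, 12 were lower and 0 higher (median -1.17), and the lower genes were 6 without Ifnar1-/- replicate 2 and 3 without WT replicate 2.

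The mRNA-destabilizing protein tristetraprolin, which acts on AU-rich elements such as that of Tnf, is encoded by Zfp36. Zfp36 read 13.66 and 14.32 in WT and 11.7 and 10.75 in Ifnar1-/- with IFNβ+zVAD (log2 difference -2.76, SE 0.55, adjusted p = 0.000506), and 10.41 and 10.39 against 10.99 and 9.88 in untreated cells (0.04). The interaction was -2.8 (adjusted p = 0.017), and it was not called without Ifnar1-/- replicate 2 (adjusted p = 0.0889), without WT replicate 2 (0.0686) or without untreated Ifnar1-/- replicate 1 (0.0986). Over the 23 genes of AU-rich element binding and the p38-MK2 pathway 6 were lower and 3 higher (median -0.02). Over all genes tested 15.9% were lower and 27.5% higher, so the list as a whole did not stand out. With the 75th percentile scaling 1 of the 23 was higher, and with the replicate number as a block 5 were. Mapk14, which encodes p38α, was higher (1.85, adjusted p = 0.00103).

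Immediate early genes and MAPK phosphatases were lower in 14 of 31 and higher in 3 (median -0.99), whereas untreated 1 was lower and 4 were higher (median 0.54). For 14 of them the interaction was negative and for 0 positive. Egr1, a zinc finger factor induced through ERK, read 11.93 and 12.85 in WT and 9.5 and 9.4 in Ifnar1-/- (log2 difference -2.94, adjusted p = 0.000635, interaction -3.7). The phosphatase Dusp10, which acts on p38 and JNK, differed by -3.43 with the stimulus and by 1.07 without (interaction -4.51, adjusted p = 0.00448). Myc was higher in both conditions, by 2.67 (adjusted p = 0.00013) and 2.16 (adjusted p = 0.00554), and the untreated call was lost without untreated Ifnar1-/- replicate 1 (adjusted p = 0.056) or WT replicate 1 (0.0501).

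Of 11 genes of arginine, nitric oxide, itaconate and tryptophan metabolism 7 were lower and 1 higher (median -1.84). Nos2, the inducible nitric oxide synthase, read 13.69 and 14.08 in WT and 8.54 and 7.35 in Ifnar1-/- (log2 difference -5.94, adjusted p = 1.25e-07), and 8.15 and 7.86 against 8.51 and 7.66 in untreated cells. Nos2 was thus at its untreated level in stimulated Ifnar1-/- cells (interaction -6.02, adjusted p = 3.62e-05). Acod1, which makes itaconate, read 17.9 and 17.97 against 14.08 and 13.19, and 12.53 and 10.81 against 7.21 and 7.51 untreated. Its difference of -4.3 was called with all arrays (adjusted p = 0.0418), but not when any 1 of the 4 compared arrays was left out. Without both divergent pairs, a fit chosen after the values were seen, the adjusted p was 2.92e-07. Ch25h, which makes the antiviral oxysterol 25-hydroxycholesterol, was at least 320-fold lower. Of the genes of cholesterol synthesis and uptake 8 of 31 were higher and 3 lower, a share of higher genes near the 27.5% over all genes, and the higher ones included Dhcr7 (2.88, adjusted p = 1.25e-06) and Mvd (2.68, adjusted p = 1.55e-05). With the 75th percentile scaling 5 were higher and 5 lower, and without Ifnar1-/- replicate 2 5 were higher and 1 lower.

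**Figure D3:**
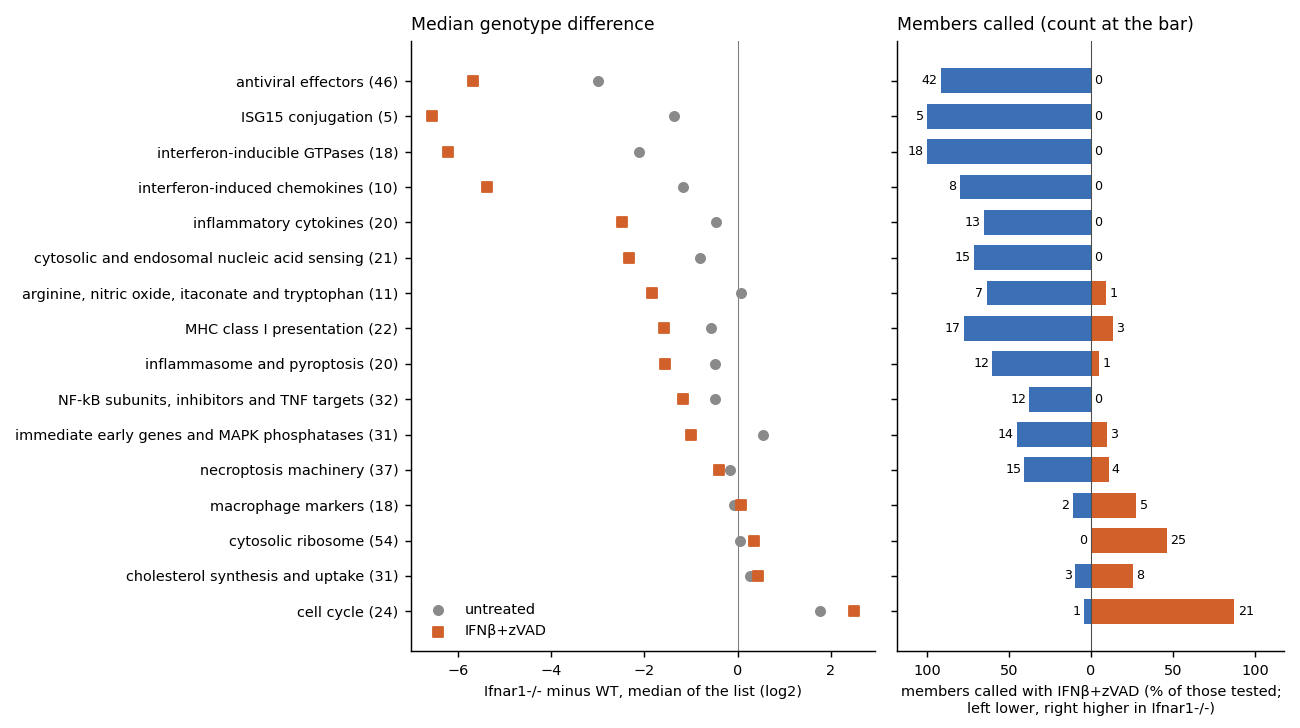
The left panel gives the median log2 difference of Ifnar1-/- minus WT over each gene list, untreated (circles) and with IFNβ+zVAD (squares), with the number of genes tested in parentheses. The right panel gives the percentage of each list called lower (left) or higher (right) with IFNβ+zVAD, with the counts at the bars. Antiviral effectors (42 of 46) and GTPases (18 of 18) are lower almost throughout, and cell cycle genes are mostly higher (21 of 24).

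Outside the interferon lists, genes with large negative interactions included the serine protease inhibitor Serpina3g, which read 17.19 and 16.32 in stimulated WT and 5.99 and 5.2 in stimulated Ifnar1-/-, against 7.32 and 7.42 and 5.94 and 6.05 untreated (log2 difference -11.16, adjusted p = 2.97e-09, interaction -9.78). The LIM homeobox gene Lhx2 read 14.3 and 13.92 against 6.04 and 5.51 (log2 difference -8.33, untreated -0.05, interaction -8.28, adjusted p = 2.85e-06). The germ cell helicase gene Ddx4 was at least 176-fold lower, Serpina3f, a relative of Serpina3g, at least 265-fold and the endothelin gene Edn1 at least 28.2-fold. These genes did not differ by the test in untreated cells.

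The genes with the largest positive differences included genes that fell in WT. Scd2, a stearoyl-CoA desaturase, read 8.57 and 8.16 in stimulated WT against 13.24 and 12.27 in untreated WT, and 13.59 and 13.77 in stimulated Ifnar1-/- (log2 difference 5.32, SE 0.47, adjusted p = 6.3e-08). Lpin1, a phosphatidate phosphatase of triglyceride synthesis, read 4.99 and 4.82 against 9.81 and 10.36 (log2 difference 5.18, adjusted p = 8.67e-06), and 10.07 and 10.24 against 10.85 and 10.69 untreated. Polr3g, an RNA polymerase III subunit, read 3.25 and 4.3 against 10.03 and 10.09, at least 64.3-fold higher in Ifnar1-/- (adjusted p = 2.01e-07). In each of these genes stimulated Ifnar1-/- cells were close to untreated cells of both genotypes.

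Peg12, Zfp704 and Nat8l, which makes N-acetylaspartate, were at least 17.9-fold, 23.9-fold and 24.9-fold higher with IFNβ+zVAD and did not differ by the test in untreated cells (log2 differences -0.81, -0.08 and 0.18). The size for Peg12 rests on its brightest probe, since its other retained probe differed by 0.49 and was not called (adjusted p = 0.227 by limma). Others were called higher in both conditions, as Angptl2, which encodes a secreted angiopoietin-like protein, with 4.72 and 4.89 in WT and 10.45 and 11.16 in Ifnar1-/- (log2 difference 6.00, adjusted p = 6.53e-06, untreated 3.15). Tacc2, which encodes a centrosomal coiled-coil protein, read 4.71 and 6.23 against 11.26 and 11.46 (5.89, adjusted p = 1.27e-08, untreated 1.72). The untreated call of Angptl2 was lost without any of 3 of the 4 untreated arrays (both Ifnar1-/- arrays and WT replicate 1, adjusted p = 0.0856 to 0.16), and that of Tacc2 without any of the 4 (adjusted p = 0.0887 to 0.161).

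Cell cycle genes were higher in Ifnar1-/- in both conditions, in 21 of 24 with IFNβ+zVAD (median 2.5) and in 13 untreated (median 1.77). Rrm2, the small subunit of ribonucleotide reductase, read 8.11 and 7.79 in WT and 12.62 and 12.99 in Ifnar1-/- with IFNβ+zVAD (log2 difference 4.86, adjusted p = 1.44e-08), and 10.29 and 9.98 against 12.99 and 13.2 untreated (2.96). The mitotic checkpoint kinases Bub1b and Bub1 were higher by 3.92 and 3.79. Tyms, which makes thymidylate, was the exception that was lower (-2.04, adjusted p = 0.00036). In bulk samples a different number of cells of a kind and a different level per cell cannot be told apart.

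Ribosomal protein genes were higher in 25 of 54 and lower in 0 (median 0.34), but with the 75th percentile scaling 10 were lower and 0 higher (median -0.49), and in a fit of only the compared arrays 0 were higher, so that no direction can be given. The same scaling turned the median of 12 housekeeping genes from 0.26 to -0.26.

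Of the macrophage markers 2 of 18 were lower and 5 higher (median 0.07), a share of higher genes near the 27.5% over all genes. With the 75th percentile scaling 4 were lower and 2 higher. Their summed quantile-normalized log2 level was slightly higher in Ifnar1-/-, at 20.56 to 20.65 against 20.29 to 20.42 in WT, without overlap. Whether the sums hold under another scaling was not tested. Within the list the Fc receptor gene Fcgr1, which interferon induces, was lower (16.56 and 16.24 against 10.26 and 10.7, log2 difference -5.92, adjusted p = 5.9e-06), and the myeloid factor gene Cebpa was higher (3.9, adjusted p = 2.17e-08). The neutrophil sum was 15.75 to 16.3 in WT and 16.46 to 16.89 in Ifnar1-/-, with 1 of 12 markers lower and 3 higher, and the T and NK cell sum 13.96 to 15.03 against 14.09 to 14.4, with 3 of 9 lower and 2 higher. Fibroblast and endothelial markers summed to 12.89 to 13.62 and 12.82 to 13.58, with 2 of 9 lower and 5 higher, of which Col1a1 differed by 3.69 (adjusted p = 0.00726), a call lost without Ifnar1-/- replicate 1 (adjusted p = 0.076) or WT replicate 1 (0.115). Dendritic cell markers summed to 16.09 to 16.1 against 15.35 to 15.8, with 2 of 5 lower. B cell markers summed to 10.7 to 10.8 against 11.02 to 11.42, with 2 of 9 higher, and mast cell and erythroid markers to 9.03 to 9.3 against 8.6 to 8.71, with 1 of 4 lower and 1 higher. Over all genes tested 15.9% were lower and 27.5% higher. The shares called higher among the neutrophil, T and NK cell and B cell markers were near the latter. The defining markers Cxcr2, Cd3d, Cd3g, Ncr1, Ighm, Clec9a, Xcr1, Cpa3 and Pdgfra were too dim to be tested. Leaving out 1 array moved these small counts, and without WT replicate 1 the neutrophil markers called higher were 0. The part of other cells in the genotype differences was not tested.

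Around Ifnar1 on chromosome 16, where DNA of the strain in which an allele was made can stay after backcrossing, 21 neighbouring genes were tested, and 4 were lower and 3 higher with IFNβ+zVAD (median 0.09). Over all genes tested 15.9% were lower and 27.5% higher, so the neighbouring genes as a group did not stand out. Gart, a purine synthesis gene, was higher by 2.07 (adjusted p = 2.47e-07, untreated 0.56), and Runx1 and Synj1 were lower by log2 differences of -2.22 and -1.97. The other retained probe of Runx1 differed by -0.44 and was not called (adjusted p = 0.438 by limma). The background of the Ifnar1-/- mice beside this locus was not examined here.

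The response to IFNβ+zVAD was then compared within each genotype, whose treated and untreated arrays lay on the same slides. In WT cells 3700 genes fell (23.1%) and 2314 rose (14.4%) relative to untreated cells, with 38.5% of the called genes higher, or 48.6% under the 75th percentile scaling. Relative to zVAD alone 3332 fell (20.8%) and 1961 rose (12.2%). The fit behind these counts had no slide term. With slide as a random and a fixed block, the WT response was called in 7981 and 8195 genes, against 6014 without. Relative to zVAD it was called in 7510 and 7699, against 5293. In Ifnar1-/- cells 1 gene fell (0.00624%) and 0 rose (0%) relative to untreated cells by limma, with 585 at an unadjusted p below 0.05, and relative to zVAD 1 fell (0.00624%) and 0 rose (0%), with 314 at an unadjusted p below 0.05. The gene in both cases was the odorant receptor gene Olfr767, named after its value was seen, which has a dim probe. The median 95% half-width of an Ifnar1-/- response was 0.69 on the log2 scale before any adjustment for the number of genes. After that adjustment responses larger than this could also have been missed. The genes that rose in WT had a median response of 1.56 in WT and 0.07 in Ifnar1-/-, and the 3700 that fell had -1.23 and -0.07. Of the former 1303 (56.3%) and of the latter 1722 (46.5%) had a called interaction.

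**Figure D4:**
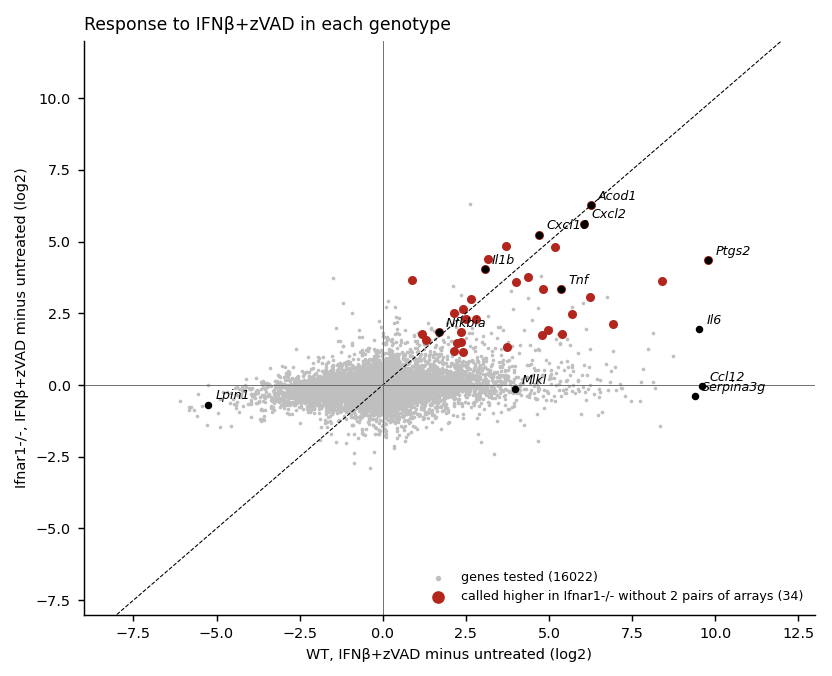
Each point is a gene, with the log2 response to IFNβ+zVAD relative to untreated cells in WT on the x axis and in Ifnar1-/- on the y axis, and the dashed line marks equal responses. Most genes lie along the horizontal line at 0 whatever their WT response, such as Ccl12, Mlkl and Serpina3g. The 34 genes in red, with a black point on those that are labelled, lie above it, Cxcl10, Cxcl2, Acod1 and Tnf among them.

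The count of calls in Ifnar1-/- cells moved with the arrays in the fit. It was 38 without Ifnar1-/- IFNβ+zVAD replicate 1, whose response then rests on the other array alone. Without the Ifnar1-/- zVAD pair and the Ifnar1-/- LPS+zVAD+Nec-1 pair, a fit chosen after the values were seen, 34 genes rose (0.212%) and 6 fell (0.0374%) in Ifnar1-/- cells with IFNβ+zVAD. Their names follow from that choice and their values are a description. Of the 34 genes 33 were also called higher in WT, and their median response was 2.56 in Ifnar1-/- and 3.73 in WT. The interaction was negative for 13, positive for 1, the fatty acid receptor gene Gpr84, and not called for 20.

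Acod1 rose by 6.27 in Ifnar1-/- cells (SE 0.4, adjusted p = 4.69e-07), and by 6.26 in WT. The neutrophil chemokine genes Cxcl2 and Cxcl1 rose by 5.62 and 4.86, and Cxcl10 by 5.23. The prostaglandin synthase gene Ptgs2 rose by 4.34, Il1b by 4.04, Socs3 by 3.60 and Tnf by 3.33 (adjusted p = 3.19e-05). Nfkbia, the inhibitor of NF-kB that NF-kB itself induces, rose by 1.84, and the chemokine genes Ccl4 and Ccl3 by 2.13 and 1.90. Most of these genes are known targets of NF-kB in macrophages. Of the interferon genes, Ifit1 (4.82), Oasl1 (3.77) and Gbp5 (3.06) were among the 34. By list, 7 of the 32 NF-kB and TNF genes rose in Ifnar1-/- cells and 29 had a positive response (median 0.82, against -0.03 over all genes), whereas of the 46 antiviral effectors 2 rose (median 0.05).

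The zVAD arrays differed from each other in these same genes. That pair was left out of the fit because its arrays differed in inflammatory genes, so this difference is no independent result. The genes were also picked for their rise with IFNβ+zVAD, which sets the medians of those arrays high. Over the 34 genes the Ifnar1-/- zVAD replicate 1 lay at a median of 2.34 above the mean of the untreated Ifnar1-/- arrays and replicate 2 at 0.19, against 2.90 and 2.46 for the IFNβ+zVAD arrays. Acod1 read 13.06 and 7.95 on them, Cxcl2 11.67 and 6.22, and Tnf 12.84 and 10.13. The array labelled zVAD replicate 1 was thus near the IFNβ+zVAD arrays and the array labelled zVAD replicate 2 near the untreated ones, and which of them stands for zVAD alone cannot be settled from the labels. With Nec-1 added to IFNβ+zVAD the median over the 34 genes was 0.70 on each array, and Tnf read 9.92 and 9.97.

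**Figure D5:**
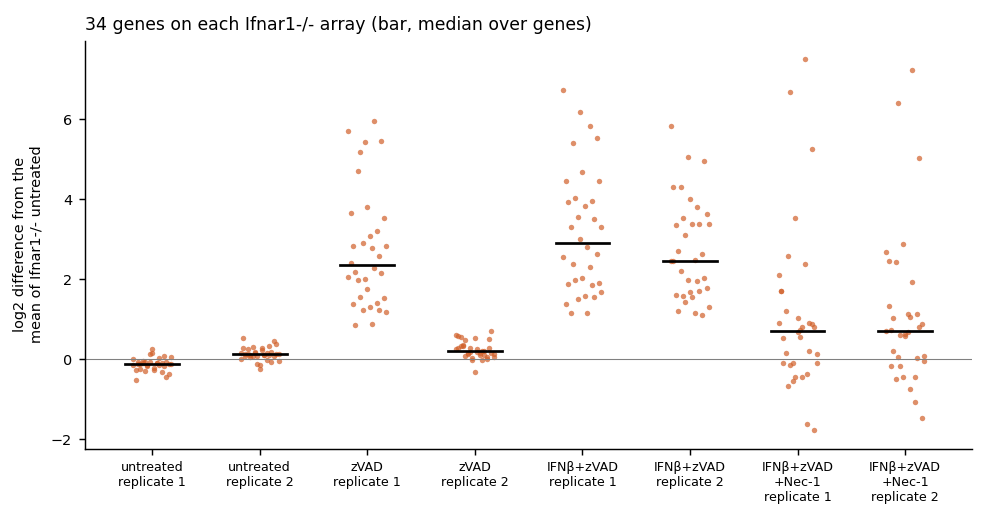
The 34 genes that rose in Ifnar1-/- without 2 pairs of arrays are shown on each Ifnar1-/- array as the log2 difference from the mean of the untreated Ifnar1-/- arrays, with a bar at the median over the genes. The medians are 2.34 on zVAD replicate 1 and 0.19 on replicate 2, and 2.90 and 2.46 on the IFNβ+zVAD arrays. The genes were picked for their rise with IFNβ+zVAD in a fit that left out the divergent zVAD pair, so the medians are a description.

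The promoters of these genes were searched for the NF-kB core, which reads GGGA, any 4 bases and CC, on both strands of the same windows. It was present for 46.7% of the genes with an entry (14 of 30), against 28.3% of all tested genes and 20.7% of all RefSeq promoters, a description of a list of few genes. The following windows, with the core in capitals (ending in TCCC where the match is on the other strand), are shown because these genes rose in Ifnar1-/- cells.
Cxcl2, chr5:90903792-90903821, plus strand: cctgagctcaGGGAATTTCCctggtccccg
Nfkbia, chr12:55492657-55492686, minus strand: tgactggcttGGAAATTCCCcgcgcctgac
Acod1, chr14:103046947-103046976, plus strand: aaaagtgaaaGGGACAGACCtggagggagt
Cxcl10, chr5:92348973-92349002, minus strand: cggtttacagGGGACTTCCCtcgggttgcg
The promoter of Cxcl10 also held the ISRE core, which the windows of Cxcl2, Nfkbia and Acod1 did not (0 in each), and it is shown here for comparison with those of the antiviral genes.
Cxcl10, chr5:92349083-92349112, minus strand: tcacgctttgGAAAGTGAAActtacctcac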

How the data were processed

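Expression was measured in 32 samples of mouse BMDMs with 1-colour Agilent arrays. Per the labels and methods, the authors scanned the arrays with Feature Extraction (11.5.1.1) and deposited the processed intensity of each spot, corrected for background, together with a table of normalized log2 values that the authors made. Here log2 of the deposited intensities was quantile-normalized with limma (3.58.1, R 4.3.3), without control spots and outlier spots (130 to 499 per array). Probes well above background on at least 50% of the arrays were kept (21465 of the 33153 probes with a gene name, of 55681), and the brightest probe stood for each of 16022 genes. Genes were named through RefSeq accessions (27656 probes), symbols (3401) or synonyms (321), and 1775 kept the array's name. For 5442 other probes of these genes the genotype difference had the opposite sign in 1320, with both probes called in 86. The deposited log2 table (59305 rows, array medians 7.61 to 7.8) correlated with the scanner values at 0.983 to 0.995 and served as an alternative. Its centring beyond these medians is not given in the sources used here.

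All 16 groups of 2 were fitted as group means with limma (lmFit and eBayes, 16 residual degrees of freedom), and p-values were adjusted by Benjamini-Hochberg over all genes. The precision is limited by 2 arrays in a group. The fits were tested on simulated data with known changes in 200 genes. Of changes of 1 and 2 on the log2 scale, the genotype comparison called 40% and 73%, and the interaction 9% and 45%. An interaction that was not called therefore does not show that the responses were equal. Same-numbered arrays of the genotypes share only a number. The text takes its names from Ifnar1, the 10 called genes with the largest difference in each direction for the genotype comparison (without overlap of the arrays) and for the interaction, the 4 genes of each list with the largest difference, and a set of genes of interferon signalling, cell death and inflammation. Genes, lists and tests were chosen with earlier results of these data known. Alternatives were the scaling, background correction, filter, probe choice, authors' values, blocks, arrays in the fit and leaving out each array. Promoter sequences are those of RefSeq, GRCm38.p6. Some withheld items are not reported here.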

Additional observations from a re-analysis of the deposited data

Results flagged for a closer look

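The genotypes responded differently to IFNβ+zVAD by a test of the interaction in 3086 genes relative to untreated cells and in 2480 relative to zVAD alone. The values that follow are fitted interactions with untreated cells, Ifnar1-/- response minus WT response on the log2 scale, and for genes that were not well above background on some arrays they depend on dim readings and are not bounds. The most negative among called genes were Serpina3g (-9.78), Serpina3f (-9.74), Ccl12 (-9.64), Ccl7 (-8.3), Lhx2 (-8.28), Edn1 (-8.02), Gbp4 (-8.02), Cxcl9 (-7.71), Ddx4 (-7.69) and Ccl8 (-7.64). The most positive were Peg12 (5.53), Polr3g (5.26), Zfyve28 (5.23), Nat8l (5.05), Frat1 (5.01), Abcd2 (4.96), Zfp704 (4.81), Klhl24 (4.72), Lpin1 (4.57) and Engase (4.52). The value of Peg12 is that of its brightest probe, and its other retained probe had a genotype difference of only 0.49 with IFNβ+zVAD.

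Among the genes of interferon signalling that were named singly, the interaction was called for Usp18 (-4.49), Irf7 (-4.12), Stat2 (-2.64) and Irf9 (-1.04). Of the death genes it was called for Mlkl (-4.13), Zbp1 (-3.59) and Casp8 (-1.48). It was also called for Il6 (-7.58), Il10 (-4.15) and Zfp36 (-2.8). For Il6, Irf9 and Zfp36 the call was lost when single arrays were left out.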

How the results depend on the processing

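The genotype difference with IFNβ+zVAD was called in 6950 genes, in 5065 to 5900 without 1 of the compared arrays, in 4424 in a fit of only the compared arrays and in 8290 with the replicate number as a block. The same-numbered deviations of the genotypes correlated at 0.13 with IFNβ+zVAD, 0.16 untreated and 0.11 with zVAD, and those of treatments on 1 slide at about 0.4, so the numbers were not taken as pairs (with the block, the untreated difference of Mlkl had an adjusted p of 0.0342). The untreated count was 505 to 836 without 1 array, 895 with only the compared arrays and 2291 with the block, and that for zVAD 486 to 1124, 92 and 2216. The interaction with untreated cells was called in 1905 to 2596 genes without 1 array, 5426 with slide as a random and 5634 as a fixed block. The interaction with zVAD gave 1488 to 2009 without 1 array, 1603 with only the compared arrays, 3900 with the replicate block, and 4873 and 5143 with slide as a random and a fixed block. The WT response gave 4262 to 4913 without 1 array and 3697 with only the compared arrays, and relative to zVAD 3847 to 4024 and 1560.

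The Ifnar1-/- response relative to untreated cells, 1 gene, was 0 with the 75th percentile, the authors' values or only the compared arrays, 3 with probes well above background on both arrays of 1 compared group or without the zVAD pair, 5 with slide fixed, 6 with slide random, with the replicate block or without the LPS+zVAD+Nec-1 pair, 13 without a filter, 40 without both pairs and 0 to 38 without 1 array. Relative to zVAD it was 0 with the 75th percentile, normexp, the authors' values or only the compared arrays, 2 with the stricter filter, 3 with slide random, 8 without a filter and 0 to 36 without 1 array. The 75th percentile scaling turned the sign of Rpl38 (-0.05), Rpl22 (-0.03), Gapdh (-0.19), the ribosome median (-0.49) and the housekeeping median (-0.26), and the IRF median of -0.36 ranged from -0.72 to 0.01 without 1 compared array (0.01 without WT replicate 1). Of 2564 values of named genes for the genotype difference under alternatives, 2463 kept direction and call, 74 lost the call, 24 gained it and 3 reversed. The causes were not tested. Fits of only the compared arrays have fewer residual degrees of freedom.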

Other observations

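With Nec-1 added to IFNβ+zVAD, Ifnar1-/- arrays read 9.92 and 9.97 for Tnf and 5.64 and 5.95 for Il1b, against 13.3 and 13.39 and 11.87 and 11.04 without Nec-1. On the same arrays Cxcl10 read 11.05 and 10.81, Ifit1 9.76 and 9.48, Oasl1 9.97 and 9.7, and Ifnb1 8.35 and 8.12. Tnf and Il1b were thus at or below their untreated Ifnar1-/- level on these arrays, and Cxcl10 was at the level with IFNβ+zVAD. These values were picked after they were seen and were not tested.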
